A study of Rattus norvegicus with 4 samples.

Results

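The genes described here encode the translation initiation factors (eIF) and elongation factors (eEF) of the rat, with the kinases, inhibitors and methyltransferases that carry their names. They were chosen by symbol, taking every RefSeq gene whose name begins with Eif or Eef and a digit, which gave 201 genes: 75 protein-coding genes, 124 pseudogenes and 2 long non-coding RNAs. An array probe was matched to 59 of them, all protein-coding, among 16581 named genes with a probe. The other 142 have no value here. Among these are 16 protein-coding genes: Eif2a, Eif3k, Eif4e2, Eif4e1b, Eif4g1, Eif5, Eef1akmt3, Eef1akmt4 and 8 copies with names such as Eef1a1l1 and Eif4a1l.

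Transcript levels were measured in NR8383 cells, a permanent line of alveolar macrophages obtained by lavage of a normal rat lung. They received carbon black (Printex 90), a powder of fine carbon particles, at a dose given as particle surface per culture surface, 0.9 cm2/cm2, for 4 h. The series asked how the particles change gene expression relative to cells incubated without them. The 4 arrays described here all came from the exposed cells, with no other agent named, and were labelled as 4 biological replicates after 20 passages. A preculture of 48 h and 15% serum are listed for all 4. Cells without particles were not analysed here. The values are therefore levels in exposed cells and their spread between replicates, and none is an effect of carbon black. The replicates came from 1 cell line, so their spread does not cover differences between animals.

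Translation of most cellular mRNAs starts when eIF2 brings the initiator tRNA to the small ribosomal subunit, which eIF3 and the cap-binding complex eIF4F place on the mRNA. The elongation factor eEF1A then delivers each aminoacyl-tRNA, and eEF2 moves the ribosome along. Cells slow protein synthesis by phosphorylating eIF2, by trapping the cap-binding protein with inhibitors or by phosphorylating eEF2. Macrophages use these switches when they sense stress, nutrients or microbes.

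Many mRNAs of the translation machinery begin with a C followed by an unbroken run of pyrimidines, which couples their translation to the kinase mTOR. The letters around the RefSeq transcription start (GRCr8, names and sequences only) are shown for 5 measured genes that hold such a run there, from 15 bases before the start onward. Capitals mark the run.
Eef1a1, chr8:88225045-88225084, minus strand: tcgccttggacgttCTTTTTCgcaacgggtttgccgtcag
Eef1b2, chr9:72074076-72074115, plus strand: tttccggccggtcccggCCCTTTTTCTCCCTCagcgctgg
Eif2s3, chrX:62933675-62933714, minus strand: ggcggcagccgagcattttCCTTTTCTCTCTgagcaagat
Eif3f, chr1:172369047-172369086, plus strand: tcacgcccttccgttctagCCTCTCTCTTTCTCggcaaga
Eif3m, chr3:111897169-111897208, minus strand: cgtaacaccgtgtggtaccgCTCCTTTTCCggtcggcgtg
The run began between 1 base before the listed start (Eef1a1) and base 6 after it (Eif3m), and was 7 to 15 bases long. A C followed by at least 4 bases of C or T on the coding strand, with that C within 10 bases of the start, was found in 34.5% of 55 promoters of measured genes of the set. It was found in 28.1% of 6983 promoters of named genes detected on every array and in 28.5% of all 21851 protein-coding promoters. With the C exactly at the listed start the shares were 0%, 2.74% and 2.52%, so the count depends on the window searched.

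Another element known from these genes is CACGTG, the E-box bound by Myc and related factors, which reads the same on both strands. It is shown with 10 bases on each side, in capitals, for the cap-binding protein gene Eif4e, which holds a pair of them, and for Eef2, Eif3f and Eif5a, whose levels are given below.
Eif4e, upstream copy, chr2:229740506-229740531, plus strand: cgccagcgacCACGTGatcacttttt
Eif4e, downstream copy, chr2:229740663-229740688, plus strand: acacgtccgtCACGTGggcaggagcc
Eef2, chr7:9189299-9189324, minus strand: cccgcgccgtCACGTGacgtgcccaa
Eif3f, chr1:172368993-172369018, plus strand: agatatgggtCACGTGgtacaaattt
Eif5a, chr10:55143412-55143437, minus strand: ggggcggggtCACGTGtgtgcgtcat
CACGTG occurred between 250 bases before and 50 bases after the listed start in 10 of the 55 promoters of measured genes (18.2%). The share was 9.88% in promoters of named genes detected on all arrays and 7.02% in all. Eif5a2, which also holds 2 copies, was detected on no array. TGATGCAA, a motif of amino acid response elements, searched on both strands, was in 1 of the 55 (1.82%), against 0.687% and 0.728%. The motifs were chosen after the levels had been seen, no test was made, and a match is only a match of letters.

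Signal for the set was nearly complete. A gene counted as detected on an array if the scanner software marked any of its probes as well above background. Of the 59 genes, 56 (94.9%) were detected on each of the 4 arrays. The other 3 were detected on none. Among all named genes 7953 of 16581 (48.0%) were detected on all 4 arrays. No test of this difference was made. Each level below is the log2 of a gene's processed intensity after subtraction of the 75th percentile of that array's probes (level 0), with the SD over 4 arrays. Probes bind with different strength, so the level of a gene is not set against that of another gene. The zero point is a choice of scaling, and with the percentile of detected probes each level moved by -3.52. With normexp the levels of the genes named here moved by -0.95 to 0.36.

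**Figure D1:**
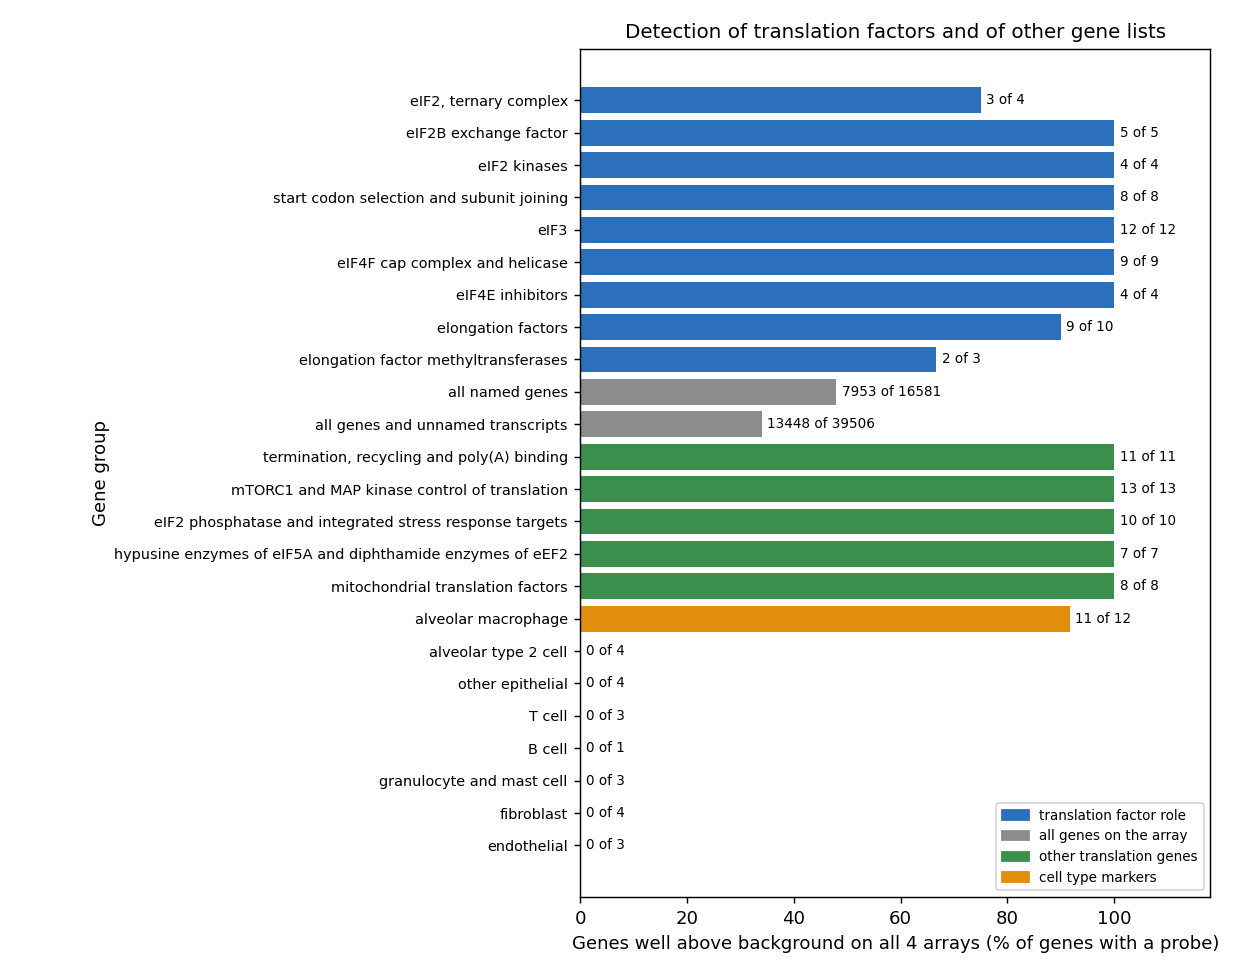
Share of genes with a probe that the software marked above background on each of the 4 arrays (horizontal axis, %), for each role of translation factors, all genes on the array, other genes of translation and cell type markers, with the counts beside each bar. Each of 6 roles had all of its measured genes detected, against 48.0% of all named genes.

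Signal covered a like share of probes on the 4 arrays. Between 37.5% and 40.9% of 45598 probes were well above background, no spot was saturated, and background was highest on replicate 1. There the near-highest signal (percentile 99) of 308 negative control spots was 27.1, against 4.95 to 7.40 on the other arrays. Of 12 alveolar macrophage markers 11 were detected on every array, and the scavenger receptor gene Marco was detected on none. Of 22 measured markers of other lung and blood cells none was detected on all arrays, and the granulocyte marker gene S100a8 was so on 2.

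Subunits of eIF2, the carrier of initiator tRNA, were detected with 1 exception. Eif2s1, the alpha subunit that stress kinases phosphorylate, had levels of 5.20, 5.21, 5.22 and 5.23 on replicates 1 to 4 (SD 0.012). This was the smallest SD in the set, but only under this scaling. Under the other 4 it was 0.061, 0.080, 0.045 and 0.143, and other genes had smaller ones. Eif2s2, the beta subunit, had 4.91, 4.80, 5.07 and 4.88 (SD 0.12). The gamma subunit gene on the X chromosome, Eif2s3, had 0.23, -0.25, 0.24 and 0.15 (SD 0.23), lowest on replicate 2. Its Y-linked copy Eif2s3y gave no signal well above background on any array.

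The guanine nucleotide exchange factor eIF2B, which recharges eIF2 and is blocked when eIF2 is phosphorylated, had all 5 subunits detected. It held 2 of the 5 largest SDs of the set under this scaling, and those 5 all came from probes with 1 spot per array. Eif2b1 (alpha) had levels of 0.65, 1.26, 1.13 and 1.31 (SD 0.30), and Eif2b3 (gamma) had 2.12, 2.77, 2.54 and 2.59 (SD 0.27). Replicate 1 lay below the other 3 arrays in both, and without it their SDs were 0.094 and 0.12. With scaling by detected probes Eif2b3 was not among the 5 largest, and with normexp Eif2b1 was not. Eif2b2 (beta) had 5.72, 5.96, 5.69 and 5.53 (SD 0.18), and was lowest on replicate 4. Eif2b4 and Eif2b5, the delta and epsilon subunits, had SDs of 0.21 and 0.10. The median deviation of the 5 from their own means was -0.23 on replicate 1 and 0.21 on replicate 2. It was also below 0 on replicate 1 under the other 4 scalings, between -0.12 and -0.23.

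All 4 eIF2 kinases were detected. Eif2ak1, the kinase that senses heme deficiency, had levels of 3.65, 3.66, 3.70 and 3.52 (SD 0.080). Eif2ak2, the kinase activated by double-stranded RNA and known as PKR, had -0.011, -0.086, 0.095 and 0.39 (SD 0.21). It was highest on replicate 4, as was its other probe, with -1.21, -1.44, -1.39 and -0.82 (SD 0.28). Eif2ak3, the endoplasmic reticulum kinase PERK, had 1.17, 1.26, 1.13 and 0.81 (SD 0.20), lowest on replicate 4. A second Eif2ak3 probe, designed to a predicted transcript, gave no signal well above background. Eif2ak4, the amino acid sensor GCN2, had an SD of 0.18. Replicate 1 was the lowest array for none of the 4, or for 1 of them (Eif2ak2) with normexp background correction.

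The 8 measured factors of start codon selection and subunit joining were all detected. Eif1, which guards the choice of start codon, had levels of 7.79, 7.92, 8.02 and 7.90 (SD 0.097). Its paralog Eif1b had 1.60, 1.83, 1.52 and 1.57 (SD 0.14), and Eif1ax, the scanning factor eIF1A, had 1.40, 1.76, 1.56 and 1.75 (SD 0.17). The arrays took a different order in each of these. Eif1ad, a gene with an eIF1A-like domain, was at 4.09, 4.39, 4.34 and 3.84 (SD 0.25), and its second probe had an SD of 0.13. Without replicate 4 the SD of Eif1ad was 0.16. Eif2d, an initiation factor that can deliver tRNA without eIF2, had an SD of 0.11, and its second probe, to a predicted transcript, gave none well above background. The other 3 were Eif1a, Eif5b, which joins the subunits, and Eif6, which keeps them apart, with SDs of 0.094, 0.082 and 0.19.

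The scaffold eIF3 was the largest group, with 12 measured genes, all detected. The subunit genes Eif3a, Eif3b and Eif3c had SDs of 0.080, 0.13 and 0.10. Eif3a had levels of 3.16, 3.04, 3.14 and 3.23, Eif3b 4.68, 4.98, 4.86 and 4.93, and Eif3c 7.18, 7.42, 7.35 and 7.29. Replicate 1 was the lowest array for Eif3b and Eif3c, and replicate 2 for Eif3a. Eif3l had levels of 3.94, 4.61, 4.46 and 4.47 (SD 0.30). Its replicate 1 lay 0.43 below the mean, and without replicate 1 its SD was 0.083. Eif3m had 3.49, 3.55, 3.59 and 3.58 (SD 0.047). This was among the 5 smallest SDs under this scaling, but under none of the other 4. Eif3f, whose letters are printed above, had 6.23, 6.57, 6.58 and 6.43 (SD 0.16), lowest on replicate 1. The other 6 subunits had SDs between 0.054 (Eif3e) and 0.21 (Eif3d) on the probes used. Second probes of Eif3e, Eif3h, Eif3i and Eif3j had larger SDs, from 0.22 to 0.29.

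Among genes of the cap complex eIF4F and its helicase, all 9 measured genes were detected, and the scaffold gene Eif4g1 was not matched to a probe. Eif4e, the cap-binding protein whose E-boxes are printed above, had levels of 0.045, 0.21, 0.12 and 0.30 (SD 0.11). Its relative Eif4e3 had 1.68, 1.81, 1.67 and 1.45 (SD 0.15), lowest on replicate 4. A second probe of Eif4e had -0.25, -0.35, 0.18 and 0.0081 (SD 0.24), in another order of arrays. The scaffold relatives Eif4g2, which lacks the eIF4E-binding part, and Eif4g3 had SDs of 0.026 and 0.11, with Eif4g2 at 6.58, 6.58, 6.62 and 6.56. The helicase genes Eif4a1, Eif4a2 and Eif4a3, of which the last belongs to the exon junction complex, had SDs of 0.087, 0.034 and 0.088. Eif4a2 had levels of 3.19, 3.12, 3.15 and 3.12, and its second probe had an SD of 0.13. Under the other 4 scalings the SD of Eif4a2 was 0.049 to 0.138, and that of Eif4g2 0.040 to 0.110. The helicase cofactors Eif4b and Eif4h had SDs of 0.11 and 0.094.

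The eIF4E inhibitors were detected without exception. Eif4ebp1, a target of mTOR, had levels of 6.55, 6.71, 6.68 and 6.49 (SD 0.10). Eif4ebp2 had 1.42, 1.45, 1.37 and 1.22 (SD 0.10), and Eif4ebp3 0.989, 1.004, 0.996 and 1.238 (SD 0.12). Replicate 4 was lowest for Eif4ebp1 and Eif4ebp2, and under this scaling stood alone above the other arrays for Eif4ebp3. Under the other 4 scalings the SD of Eif4ebp3 was 0.071 to 0.158. Eif4enif1, which carries eIF4E into the nucleus, had an SD of 0.098.

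Elongation factor genes were detected in 9 of 10 cases. Eef1a1, whose start is printed above, had levels of 9.12, 9.28, 9.34 and 9.25 (SD 0.091), and its paralog Eef1a2 1.91, 1.79, 1.83 and 2.00 (SD 0.094). RefSeq lists many pseudogenes of Eef1a1, and also of other genes of the set, such as Eef1g (16) and Eif4e (10). Signal of such copies on the probes of a gene cannot be told apart from the gene itself. Eef1b2, an exchange factor subunit of eEF1A, had 7.12, 7.23, 7.22 and 7.14 (SD 0.053). Eef2, the translocase, had 7.64, 8.14, 8.09 and 8.06 (SD 0.23). Its replicate 1 lay 0.34 below the mean, and without it the SD was 0.040. Its kinase Eef2k, which stops it, was also lowest on replicate 1 with 1.31, against 1.54 to 1.60 on the others (SD 0.14). Eef1d and Eef1g, further subunits of the eEF1 exchange complex, had SDs of 0.13 and 0.086. Eef1e1, which belongs to the multi-tRNA synthetase complex despite its name, had an SD of 0.15.

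The eIF5A pair divided in detection. Eif5a, which carries the hypusine residue and frees stalled ribosomes, had levels of 7.34, 7.60, 7.47 and 7.47 (SD 0.10). Eif5a2 had 2 probes, neither of them well above background on any array. Methyltransferases of the elongation factors were detected for Eef1akmt1, at 1.27, 1.54, 1.45 and 1.35 (SD 0.12), and Eef2kmt, at -0.99, -0.54, -0.41 and -0.38 (SD 0.28, or 0.084 without replicate 1). Eef1akmt2 gave no signal well above background.

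**Figure D2:**
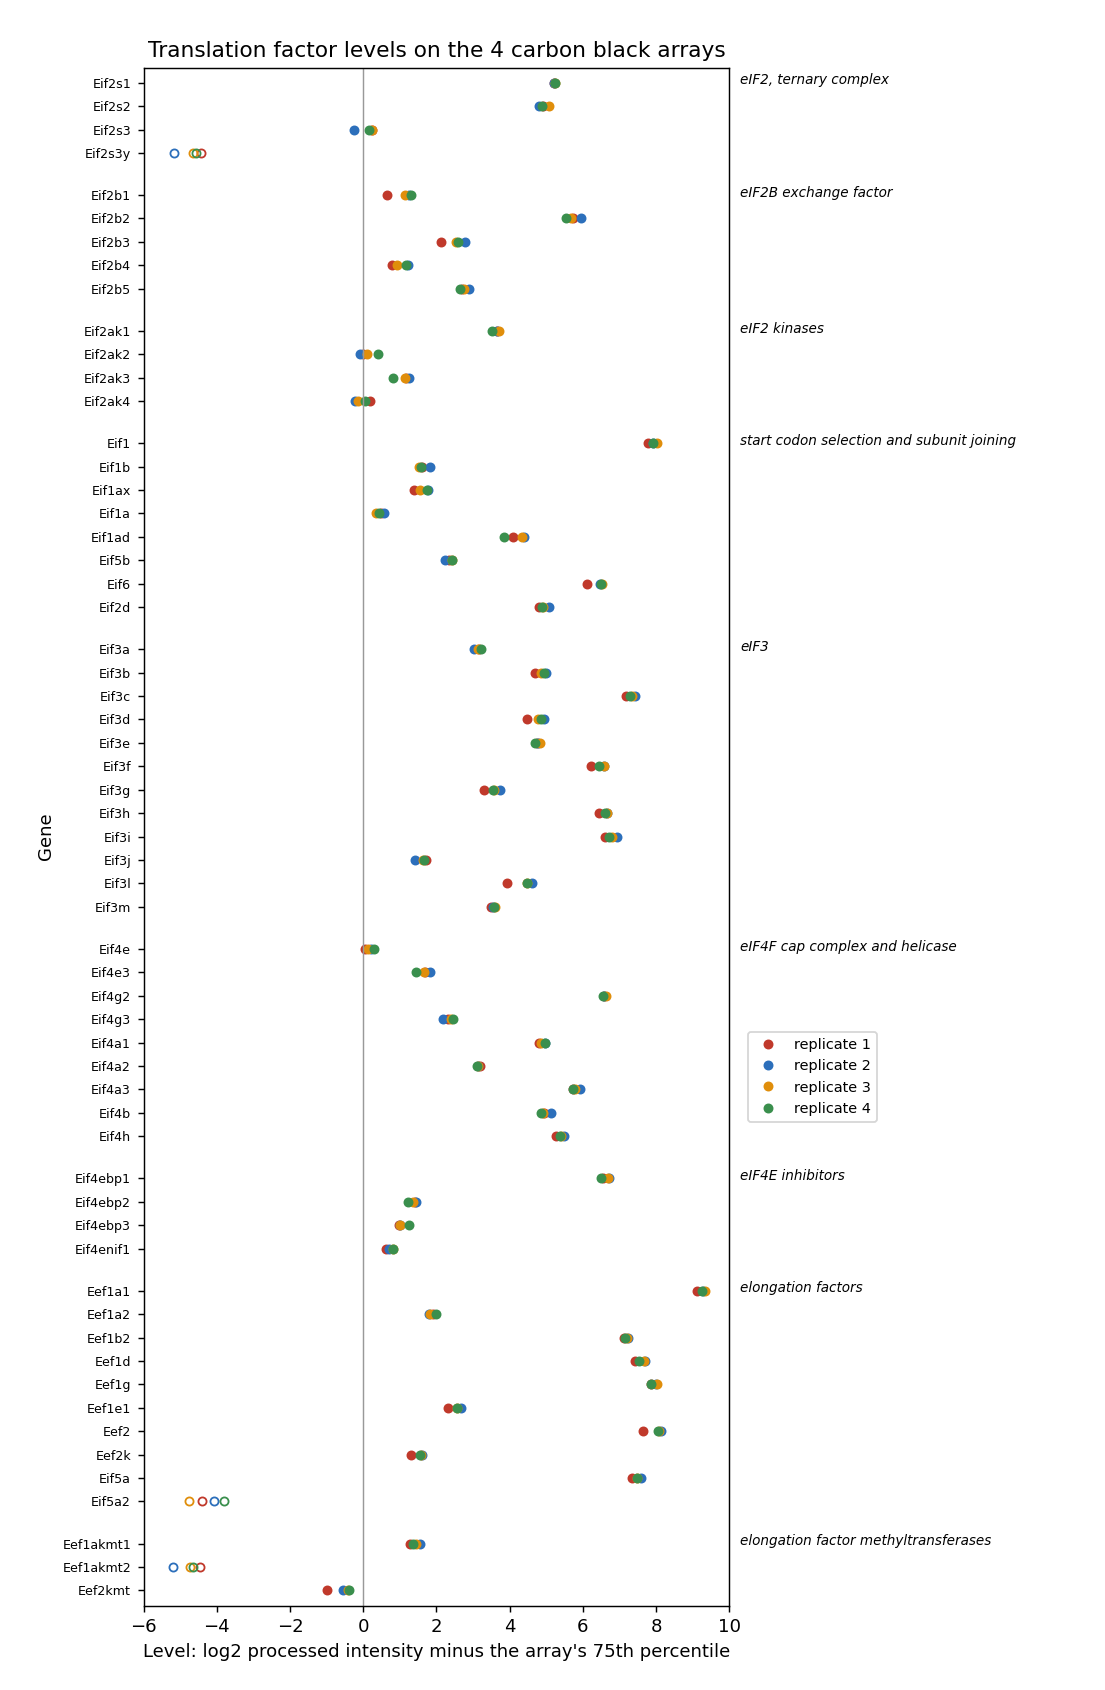
Level of each of the 59 measured genes (horizontal axis, log2 processed intensity minus the array's 75th percentile) on each array, with 1 point per replicate, grouped by role, and open points where no array was well above background. Eif2s3y, Eif5a2 and Eef1akmt2 are open, and replicate 1 lies apart on the left for Eef2, Eif2b1, Eif2b3 and Eif3l.

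The spread between replicates was then compared with that of all genes. Each gene's variance was set against the variance limma predicts for genes of its level, with Benjamini-Hochberg adjustment over all 14927 genes tested. None of the 56 detected factors passed at an adjusted p under 0.05 (limma), where 69 of all 14927 genes did (0.462%). At an unadjusted p under 0.05 (limma) 1 of the 56 passed, against 757 of all genes tested (5.07%) and 238 of 8488 named genes (2.8%). It was Eif3l (adjusted p = 0.929, limma), whose adjusted p lay between 0.265 and 0.993 over the alternatives (limma). With 4 arrays the test finds only very large excess spread, so the count of 0 does not show that these genes were constant.

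The median SD of the 56 factors was 0.114 log2 units, against 0.161 for all genes tested, and 39 of the 56 lay below that value. The factors were also brighter, with a median level of 3.59 against 1.25, and the SD of all genes tested fell with level. Compared with the median SD of tested genes in the same 1-unit bin of level, 35 of the 56 lay below. With normexp background correction the medians were 0.148 and 0.152. The factors' probes were also more often spotted 10 times. Among such probes detected on all arrays the median SD was 0.104 for the set, against 0.120 for all. Among detected probes with 1 spot it was 0.144 against 0.159. No test was made of these differences.

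**Figure D3:**
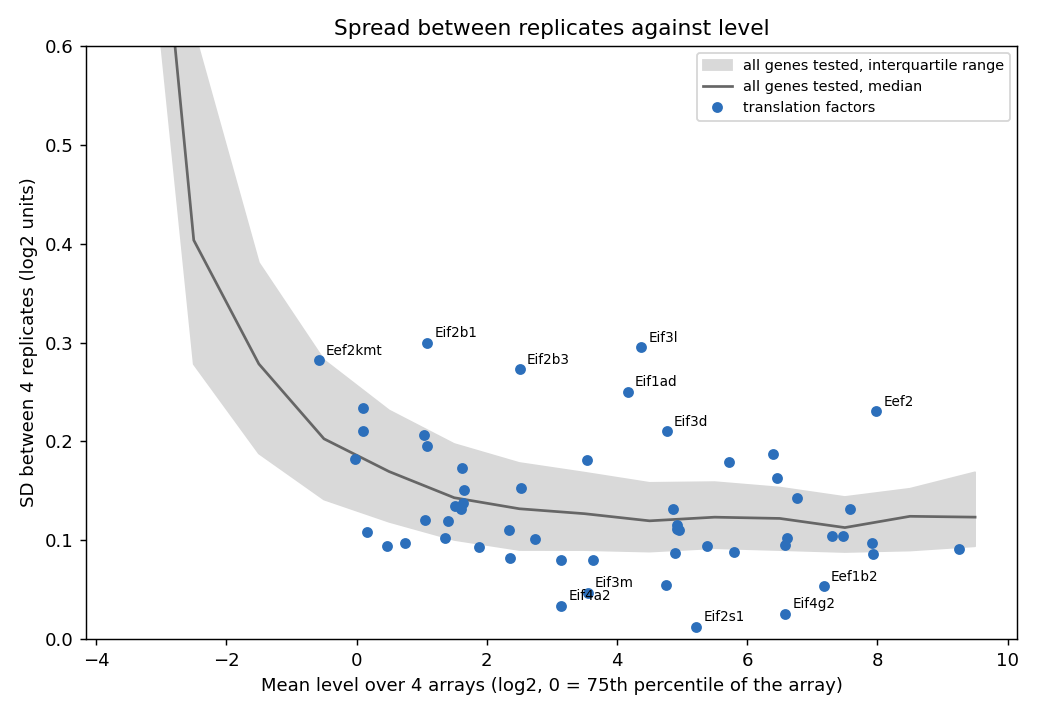
SD between 4 replicates (vertical axis, log2 units) against mean level (horizontal axis, log2), with 1 point per translation factor. The line and the grey band give the median and the interquartile range of all genes tested in bins of 1 log2 unit, and are cut off above 0.6. Eif2b1 and Eif3l lie highest, at 0.30, and Eif2s1 lowest, at 0.012.

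Repeated spots gave a measure of the error within an array. Of 83 probes of the set, 24 (28.9%) were spotted 10 times on each array, against 2.96% of all probes. For these 24 the median SD between single spots of an array was 0.072, which leaves a median error of 0.023 on the mean of 10 spots. The median SD between replicates, of such means, was 0.104. It exceeded the error of the mean in 23 of the 24 under this scaling, all but Eif2s1 (0.012 and 0.013). The SD of Eif2s1 was larger under the other scalings, but the SDs of some others were then below their error. With scaling by detected probes the SD of Eef1b2 was 0.0231, against an error of 0.0237. With cyclic loess that of Eif3e was 0.021, against 0.033, and that of Eef1g 0.031, against 0.035. In Eef2 the SD between replicates was 0.23 and the error of the mean 0.025, and in Eif3d 0.21 and 0.028. The error of the mean covers spot noise only.

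**Figure D4:**
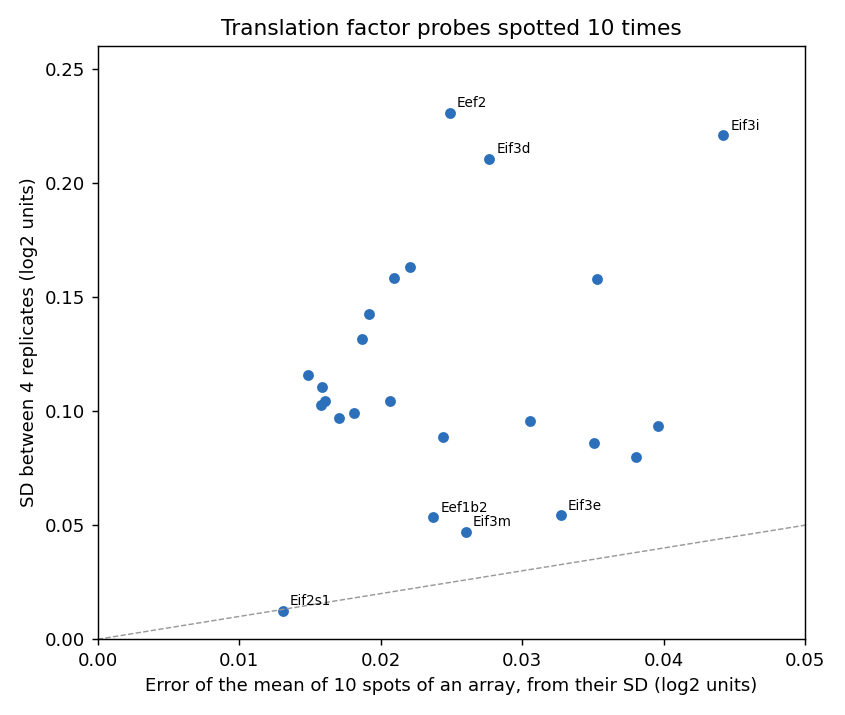
SD between 4 replicates (vertical axis, log2 units) against the error of the mean of the 10 spots of an array, from the median over 4 arrays of their SD (horizontal axis, log2 units, on a wider scale than the vertical axis), with 1 point for each of 24 probes and a dashed line where both are equal. Above the line lie 23 probes, with Eef2 highest.

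Probes of the same gene were not always alike. For 17 genes with at least 2 detected probes, the deviations from each probe's own mean were compared array by array. The widest gap between probes of a gene had a median of 0.256 log2 units, from 0.047 in Eif1 to 0.556 in Eif2s3. The probes of Eif2s3 were lowest on different arrays, replicate 2 (-0.25) for the probe given above and replicate 4 (-1.39) for the other. The probe of Eif4g2 with an SD of 0.026 had 3 companions, with SDs from 0.068 to 0.21, and the mean over its probes had an SD of 0.044.

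Factors of the set tended to be lowest on replicate 1, in a pattern that depended on the scaling. The median deviation of the 56 from their own means was -0.092, 0.098, 0.032 and 0.0043 on replicates 1 to 4, against -0.045, 0.069, 0.015 and -0.024 for all genes tested. Replicate 1 was the lowest array for 32 of the 56 (57.1%), against 39.4% of all genes tested. By role it was lowest for 9 of 12 eIF3 genes and 8 of 9 elongation factor genes. The counts were 3 of 5 for eIF2B, 4 of 8 for start codon selection and 2 of 4 for eIF4E inhibitors. They were 2 of 2 for methyltransferases, 1 of 3 for eIF2, 3 of 9 for eIF4F and 0 of 4 for eIF2 kinases. With scaling by detected probes, quantile normalization and cyclic loess, the 32 became 27, 23 and 27, while the share of all genes was 31.4%, 35.3% and 37.0%. With normexp background correction it became 11, against 27.6% of all genes, and the median deviation on replicate 1 turned to 0.038. Replicate 4 was then lowest for 31, against 40.6% of all genes. Under normexp 2 of 12 eIF3 genes and 3 of 9 elongation factor genes were lowest on replicate 1. Replicate 1 was the array with the highest background, as given above, whose part in this was not tested.

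Under all 5 scalings 9 of the 56 (16.1%) had their lowest level on replicate 1, against 18.5% of all genes tested. They were Eef1e1, Eef2, Eef2k, Eef2kmt, Eif2b1, Eif2b3, Eif3d, Eif3l and Eif4e, and were picked out after their values were seen. The second probe of Eif4e was lowest on replicate 2. A further 13 kept another lowest array under all 5. Together 22 of the 56 (39.3%) kept 1 lowest array, against 51.2% of all genes tested.

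**Figure D5:**
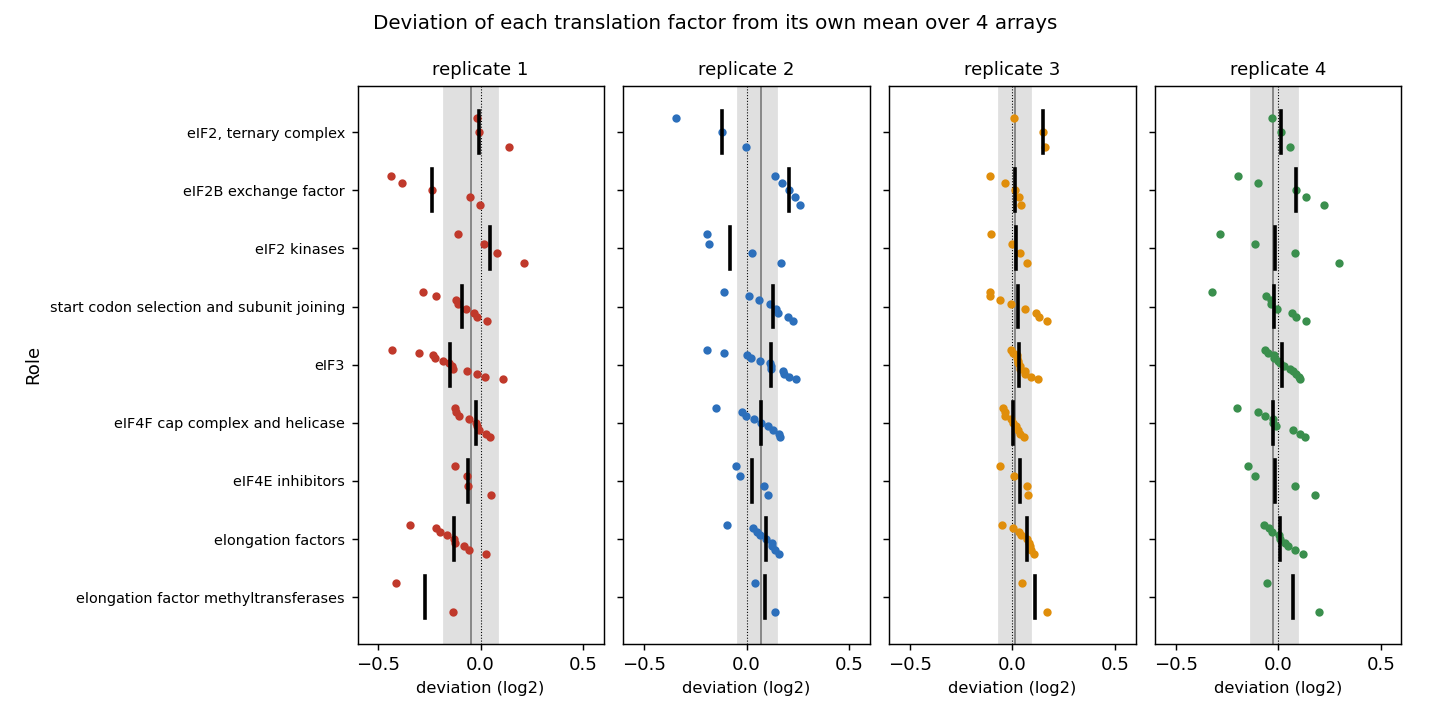
Deviation of each detected factor from its own mean over 4 arrays (horizontal axis, log2 units), by role and replicate, with 1 point per gene and a black bar at each role's median. The grey band and line give the interquartile range and the median of all genes tested, and the dotted line marks 0. The band describes single genes, not medians of small groups. The eIF2B bar lies at -0.23 on replicate 1, or -0.12 with normexp, and at 0.21 on replicate 2.

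Other genes of translation and its control, from 5 lists, were all detected where they had a probe. The 11 genes of termination, recycling and poly(A) binding had a median SD of 0.15, with the release factor genes Etf1 and Gspt1 at 4.96 ± 0.12 and 2.78 ± 0.17 (SD, n = 4). Of 15 genes of mTORC1 and MAP kinase control 13 had a probe, with a median SD of 0.18. The kinase gene Mtor had a level of -1.17 ± 0.25 and its partner Rptor 4.44 ± 0.099. The 7 measured enzymes that modify eIF5A and eEF2 included Dhps and Dohh, which make hypusine, at 1.73 ± 0.18 and 6.94 ± 0.10. The 8 measured mitochondrial factors had a median SD of 0.23 at a median level of -0.72, near which all genes had a median SD of 0.20. Among them the elongation factor genes Tufm and Tsfm had 6.35 ± 0.089 and 1.76 ± 0.23. None of these 39 genes passed at an unadjusted p under 0.05 (limma), where 5.07% of all genes tested did.

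The fifth list held 10 genes downstream of eIF2 phosphorylation. The phosphatase subunit genes Ppp1r15a and Ppp1r15b, which reverse that phosphorylation, had levels of 4.81 ± 0.18 and 2.52 ± 0.081. Replicate 1 was the lowest array for 9 of the 10, against 39.4% of all genes tested, with a median deviation of -0.31 against -0.045. It was the lowest for 9 under 3 other scalings too and for 8 with normexp, where the median deviation was -0.15. The members were chosen with results of these data known, and no test was made. At an unadjusted p under 0.05 (limma) 2 of the 10 passed, Trib3 and Sesn2, against 5.07% of all genes tested. None passed after adjustment over all genes (adjusted p = 0.0845 and 0.505, limma).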

How the data were processed

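RNA of 4 biological replicates of carbon black-exposed NR8383 cells was hybridised to 1-colour Agilent arrays on a shared slide, so slide position and replicate cannot be told apart. The deposited files hold the intensity of each spot from Agilent Feature Extraction 11.0.1.1, per the submitters' processing notes, background-subtracted and detrended per the file headers, and its marks of signal above background (another deposited column). Spots marked non-uniform were left out of levels. Log2 intensity was averaged per probe and the array's 75th percentile over probes subtracted. A probe was detected if at least 50% of its spots were marked, and a gene with several probes took the one with the highest mean. Accessions without versions were matched to RefSeq (GRCr8), which named 21109 of 45598 probes. Genes detected on at least 2 arrays entered the test of spread (lmFit and squeezeVar with a trend, limma 3.58.1, R 4.3.3, one-sided F test), which was tested on simulated data. Its p-values measure only the spread between these 4 samples.

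The genes, lists and tests were chosen with earlier results of these data known. Named with values were the first 3 detected members of each role, members not detected, members with an unadjusted p under 0.05, the 5 largest and 5 smallest SDs, members whose probes differ in detection, and paralogs, whose protein identity was not computed here. Other members named by SD, and the promoter motifs, were chosen after the values were seen. The files used here hold no mean signal column, so normexp (offset 50) was run on median signals. The comparisons made were counts by role and the test of spread, with other scalings, background correction, probe rules, filters and priors and each replicate left out as alternatives. No groups of samples could be compared, and no paired analysis was possible because there is 1 group.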

Additional observations from a re-analysis of the deposited data

Results flagged for a closer look

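In 2 of 56 detected factors 1 array stood apart from the other 3 by Dixon's criterion for 4 samples. Chance alone flags about 1 in 20. Only the 56 factors were screened, so no share over all genes stands beside this count. The 2 are described only, and are not read as a result about the set. In Eif4ebp3 replicate 4 had a level of 1.24, against 0.989 to 1.004 on the other arrays, and the gap was 0.940 of the whole range. In Eef2 replicate 1 had a level of 7.64, against 8.06 to 8.14, with a gap of 0.844 of the range. The probe of Eef2 was spotted 10 times on each array, that of Eif4ebp3 once. Both gaps are of the levels given above, and are given for no other scaling. With scaling by detected probes the lowest array of Eif4ebp3 was replicate 2 rather than 1, and its SD 0.158 rather than 0.121. With normexp its lowest array was replicate 3 and its SD 0.071.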

How the results depend on the processing

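No factor passed the test of spread under any of the 12 alternatives. Of all genes tested 69 passed. The count was 0 with the 75th percentile over detected probes, 1 with quantile normalization, 42 with cyclic loess, 237 with normexp background correction and 356 when dim probes were kept. A robust prior gave 207, with prior degrees of freedom common to all genes, a form chosen after an earlier count had been seen, and a prior that ignored level gave 0. With a replicate left out it was 27 to 162, lowest without replicate 2 and highest without replicate 3, and 89 without replicate 1. The cause was not tested. The count of detected factors stayed at 56, or was 54 where all probes of a gene had to be detected. The factors' median SD lay between 0.0967 and 0.148. Their median deviation on replicate 1 was -0.092, and lay between -0.100 and -0.015 except with normexp, where it was 0.038. No paired analysis was possible because there is 1 group. The signal over background on 4 arrays limits dim genes, whose levels are not measured where they are not well above background.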

Other observations

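Of 10 named genes on the Y chromosome with a probe, Eif2s3y among them, none was well above background on all 4 arrays and 1, Ddx3y, was so on 1 array. Ddx3y had levels of -4.54, -5.35, -1.81 and -4.69 on replicates 1 to 4, and Eif2s3y -4.42, -5.16, -4.65 and -4.56. Where a gene was not well above background these values are not measured levels. The lowest level so marked on each array was -2.29, -3.05, -2.56 and -2.40, and the values of Eif2s3y lay below it. It is the lowest of the marked spots, so it is not a strict upper bound for unmarked ones. Its X-linked partner Eif2s3 was detected on all arrays. These genes were looked up after the value of Eif2s3y had been seen.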
